A study of Mus musculus with 14 samples.

Results

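The genes described here encode the machinery that docks synaptic vesicles at the presynaptic membrane, primes them and fuses them with it. They are the protein-coding genes whose symbols belong to fixed families, and 74 of the 17927 genes with counts met this rule. These are 6 vesicle SNAREs (Vamp), 14 syntaxins (Stx), 5 genes with a Snap symbol, 7 syntaxin binding proteins (Stxbp), 16 synaptotagmins (Syt), 3 synapsins (Syn), 6 SV2 and tetraspan vesicle proteins, 3 complexins (Cplx) and 14 RAB3 and active zone genes. Vamp7 also matched by symbol and was left out because the deposited annotation gives it no biotype. It was at 45.7 ± 4.59 CPM in WT and 47.3 ± 1.04 CPM in the Capn15 KO group (SD, n = 7 each), CPM being the counts of a gene in a library scaled to 1000000 counts. Membership rests on symbols alone, so some of these genes are best known from other places in the cell: Stx5a, Stx6, Stx12, Stx16 and Vamp4 belong to the Golgi and endosomes, and Snap91 is a clathrin assembly protein and no SNARE.

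Neurotransmitter leaves a neuron when a VAMP protein on the vesicle and a syntaxin and SNAP25 on the plasma membrane zip into 1 bundle and pull both membranes together. UNC13 proteins open the syntaxin for this step, RIM, Bassoon and Piccolo keep vesicles near calcium channels, and complexins and the calcium sensor synaptotagmin 1 make fusion wait for calcium. In the newborn brain most synapses have yet to form, and axons already carry many of these proteins.

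RNA-SEQ was carried out on 14 whole brains taken at postnatal day 2 (P2), 7 from WT and 7 from Capn15 KO mice of 6 litters (A to F), and the comparison asks which mRNAs change when the protease Capn15 is missing. The mice were untreated, and the mouse lines were made in C57BL/6J. The study's methods name a Capn15(lacZ-Neo) line and a FLOXed line without saying in the RNA-SEQ section which of them gave these brains. The WT group held 2 females and 5 males and the Capn15 KO group 4 females and 3 males. Each Capn15 KO brain shared its litter with the WT brain of the same replicate number, replicates 2 and 3 both being from litter B, and only in litter F were both brains of the pair of 1 sex. The labels put all libraries in 1 batch. Each library is 1 brain, and in bulk tissue fewer cells of a type and less RNA per cell cannot be told apart.

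Libraries held between 37620954 and 70910163 counts. Capn15 itself had a mean of 25.4 ± 3.07 CPM in the WT and 14.5 ± 2.67 CPM in the Capn15 KO group (SD, n = 7 each, two-sided exact permutation test over 3432 regroupings, p = 0.00117), and its log2 fold change was -0.81 (SE 0.118, FDR = 0.0747, edgeR quasi-likelihood test). The regroupings ignored litter, while the edgeR model included litter and sex. Capn15 was lower in 6 of the 7 pairs. The exception was litter F, whose libraries go against their labels: that labelled WT replicate 7 had 18.7 CPM of Capn15 and that labelled Capn15 KO replicate 7 had 20.2 CPM. Whether these brains carry the genotypes on their labels was not tested, and each count over 7 pairs includes them. The labels give the cell type as neurons, but the libraries also held glial and vascular markers: the 6 neuron markers summed to 6150 to 6520 CPM in WT and 6160 to 6480 CPM in Capn15 KO brains, the 5 astroglia markers to 1260 to 1780 and 1360 to 1710 CPM, the 6 oligodendrocyte lineage markers to 300 to 521 and 325 to 527 CPM, and the 4 endothelial markers to 155 to 204 and 166 to 201 CPM. No marker that was measured was at 0 in these lists. Markers of pituitary and retina such as Gh, Prl, Cga and Rcvrn were not analysed here.

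The start regions of 7 members are shown first, because the results below turn on these genes: Syt2, Vamp1, Syn1, Bsn and Pclo had some of the smallest p-values between genotypes, and Sv2b and Syn2 differed most between litters in their families. Each is the part of the 250 bases before a RefSeq start site that lies in no annotated exon, read 5′ to 3′ on the strand of the gene (RefSeq, GRCm38.p6). Capitals mark every match, on either strand, to 6 short motifs: TGACGTCA (the cyclic AMP response element), TTCAGCACC (the left part of the RE1 element bound by REST), GCATGCGC (NRF1), CCAAT (the CCAAT box bound by NF-Y), GGGCGG (the GC box) and TATAAA (the TATA box).
Syt2, chr1:134646521-134646611, plus strand: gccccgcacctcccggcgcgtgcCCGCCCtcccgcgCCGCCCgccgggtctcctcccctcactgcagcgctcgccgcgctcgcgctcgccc
Vamp1, chr6:125215331-125215550, plus strand: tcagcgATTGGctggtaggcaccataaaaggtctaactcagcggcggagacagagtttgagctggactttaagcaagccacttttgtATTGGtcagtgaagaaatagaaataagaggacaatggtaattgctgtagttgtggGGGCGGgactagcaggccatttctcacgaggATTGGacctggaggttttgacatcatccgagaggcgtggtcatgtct
Syn1, chrX:20921005-20921168, minus strand: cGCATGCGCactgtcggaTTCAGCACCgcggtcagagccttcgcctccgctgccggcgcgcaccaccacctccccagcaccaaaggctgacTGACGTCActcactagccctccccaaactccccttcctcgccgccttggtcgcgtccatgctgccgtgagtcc
Bsn, chr9:108190385-108190530, minus strand: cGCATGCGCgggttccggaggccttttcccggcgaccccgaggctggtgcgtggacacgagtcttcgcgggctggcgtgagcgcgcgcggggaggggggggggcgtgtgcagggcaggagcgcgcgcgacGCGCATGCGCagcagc
Pclo, chr5:14514668-14514917, plus strand: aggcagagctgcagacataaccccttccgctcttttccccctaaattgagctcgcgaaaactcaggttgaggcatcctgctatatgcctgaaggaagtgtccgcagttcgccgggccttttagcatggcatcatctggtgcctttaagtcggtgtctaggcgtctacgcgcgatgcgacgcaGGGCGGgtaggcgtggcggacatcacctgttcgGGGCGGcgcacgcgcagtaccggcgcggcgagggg
Sv2b, chr7:75309263-75309512, minus strand: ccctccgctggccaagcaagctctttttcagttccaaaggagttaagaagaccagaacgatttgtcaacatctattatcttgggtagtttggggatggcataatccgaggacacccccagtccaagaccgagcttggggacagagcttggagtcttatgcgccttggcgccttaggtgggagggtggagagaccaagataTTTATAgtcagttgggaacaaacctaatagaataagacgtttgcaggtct
Syn2, chr6:115134836-115134901, plus strand: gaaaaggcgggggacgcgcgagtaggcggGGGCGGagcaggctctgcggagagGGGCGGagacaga

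The region of Syt2 is 84.6% G and C and holds GGGCGG 2 times, both on the other strand, whereas that of Vamp1 is 48.6% G and C and holds CCAAT 3 times, read on the other strand as ATTGG, and GGGCGG once. Syn1 has NRF1, the left part of RE1 and the cyclic AMP response element in 1 stretch of 164 bases. Bsn has 3 NRF1 matches, and the pair nearest the start overlap each other. In Sv2b the capitals mark TATAAA on the other strand, 50 bases before the start.

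Over all members, start sequences were found for 59 genes with 75 start sites, and the other 15 genes had no entry. GGGCGG was present within 250 bases of 65.3% of the 75 member start sites and of 32.7% of all 32851 start sites. CCAAT was present at 30.7% and 33.8%, and TATAAA at 6.67% and 12.4%. GCATGCGC was present at 8% of the member start sites (in Bsn, Stx12, Stx4a, Stx7, Stxbp5 and Syn1) and 2.26% of all. TGACGTCA was present at 2.67% (in Stxbp3 and Syn1) and 1.55%, and TTCAGCACC at 1.33% (in Syn1) and 0.301%. GGGCGG lies in many start regions rich in G and C, so these shares describe letters only and say nothing of a factor's binding.

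Levels of different genes were compared in WT brains as CPM per kilobase of merged exons (GENCODE M21), written here as CPM per kb. The members ran from 0.174 CPM per kb for Unc13d to 123.0 for Syt4, with 3 above 100 CPM per kb and 5 below 1. Their median was 8.47 CPM per kb, and the 10 highest members held 50.3% of the summed level of the 74. Counts behind single values lay between 18 and 34738, and 69 of the 74 members had at least 100 counts in each library.

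Among the vesicle SNAREs the level of Vamp2, the main VAMP of synaptic vesicles, was highest at 23.1 ± 1.78 CPM per kb (SD, n = 7), followed by Vamp3, which serves recycling endosomes, at 13.1 ± 0.788. Vamp1, the partner of Vamp2 in fast synapses of brainstem and spinal cord, was at 2.83 ± 0.222, and its order against Vamp8 held in 5 of the 7 WT brains. Vamp5 was lowest at 0.845 ± 0.0992.

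Among the syntaxins, the levels of Stx12 (58.2 ± 1.41 CPM per kb), Stx1a (54.8 ± 8.26) and Stx7 (52.9 ± 2.78) were highest. Stx1a could not be placed among them, since Stx12 stood above Stx1a, and Stx1a above Stx7, in only 4 of 7 brains each. Over the 7 WT brains Stx12 ran from 56.4 to 60.4 CPM per kb and Stx7 from 49.2 to 56.8. With the length of the longest transcript in place of merged exons, Stx7 led. Stx12 and Stx7 are syntaxins of endosomes, while Stx1a is one of the presynaptic membrane. Stx11, known from immune cells, was at 0.339 ± 0.0559 CPM per kb.

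The members with a Snap symbol were led by Snap47 at 115.5 ± 4.51 CPM per kb (SD, n = 7). Snap25, the SNARE of the presynaptic membrane, was at 45.0 ± 6.13, and it stood above Snap91 (42.6 ± 4.72) in 6 of 7 brains. Snap23, its relative outside neurons, was at 2.75 ± 0.118. Of the syntaxin binding proteins, Stxbp6 was at 7.13 ± 0.426 CPM per kb and Stxbp4 at 1.51 ± 0.141.

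The level of Syt4, a synaptotagmin of dense-core vesicles and the Golgi that lacks calcium binding in its first domain, was the highest of all 74 members at 123.0 ± 5.10 CPM per kb. Syt11, which also does not sense calcium, was at 74.3 ± 4.89, above the fast calcium sensor Syt1 at 57.3 ± 6.77, and both orders held in 7 of 7 WT brains. Syt2, the fast sensor of hindbrain and spinal synapses, was at 4.20 ± 0.612, and its order against Syt14 held in 4 of 7. Syt7, the slow high-affinity sensor, was at 19.9 ± 0.293, the smallest relative spread among the synaptotagmins named here, and Syt15 was lowest at 0.362 ± 0.0461.

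Of the synapsins, which tether vesicles into clusters, Syn2 was at 27.8 ± 4.22 CPM per kb, Syn1 at 8.08 ± 1.04 and Syn3 at 2.34 ± 0.265, an order held in all 7 WT brains. Synaptophysin (Syp) led the vesicle membrane proteins at 78.4 ± 9.28, followed by Sv2a at 64.4 ± 2.68, with Sv2b at 18.8 ± 3.49 and Sv2c at 5.89 ± 0.690. Cplx2 was at 78.6 ± 12.5 and Cplx1 at 45.0 ± 6.72, while Cplx3, known from retina, was at 0.751 ± 0.420.

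Rab3a, the main GTPase of synaptic vesicles, was at 115.9 ± 2.70 CPM per kb, ahead of Rab3c at 31.5 ± 1.53. Among the UNC13 priming factors Unc13a was at 17.2 ± 1.67, Unc13c at 6.35 ± 0.712, Unc13b at 3.35 ± 0.211 and Unc13d, known from cytotoxic T cells, at 0.174 ± 0.0305. Pclo (5.78 ± 1.15) and Bsn (5.55 ± 0.800) had long mRNAs and similar levels, and Pclo stood above Bsn in 5 of 7 brains. The 3 highest members, Syt4, Rab3a and Snap47, all share exon sequence with a gene on the opposite strand, and because the strand setting of the counting is not given in the sources used here their levels are uncertain.

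**Figure D1:**
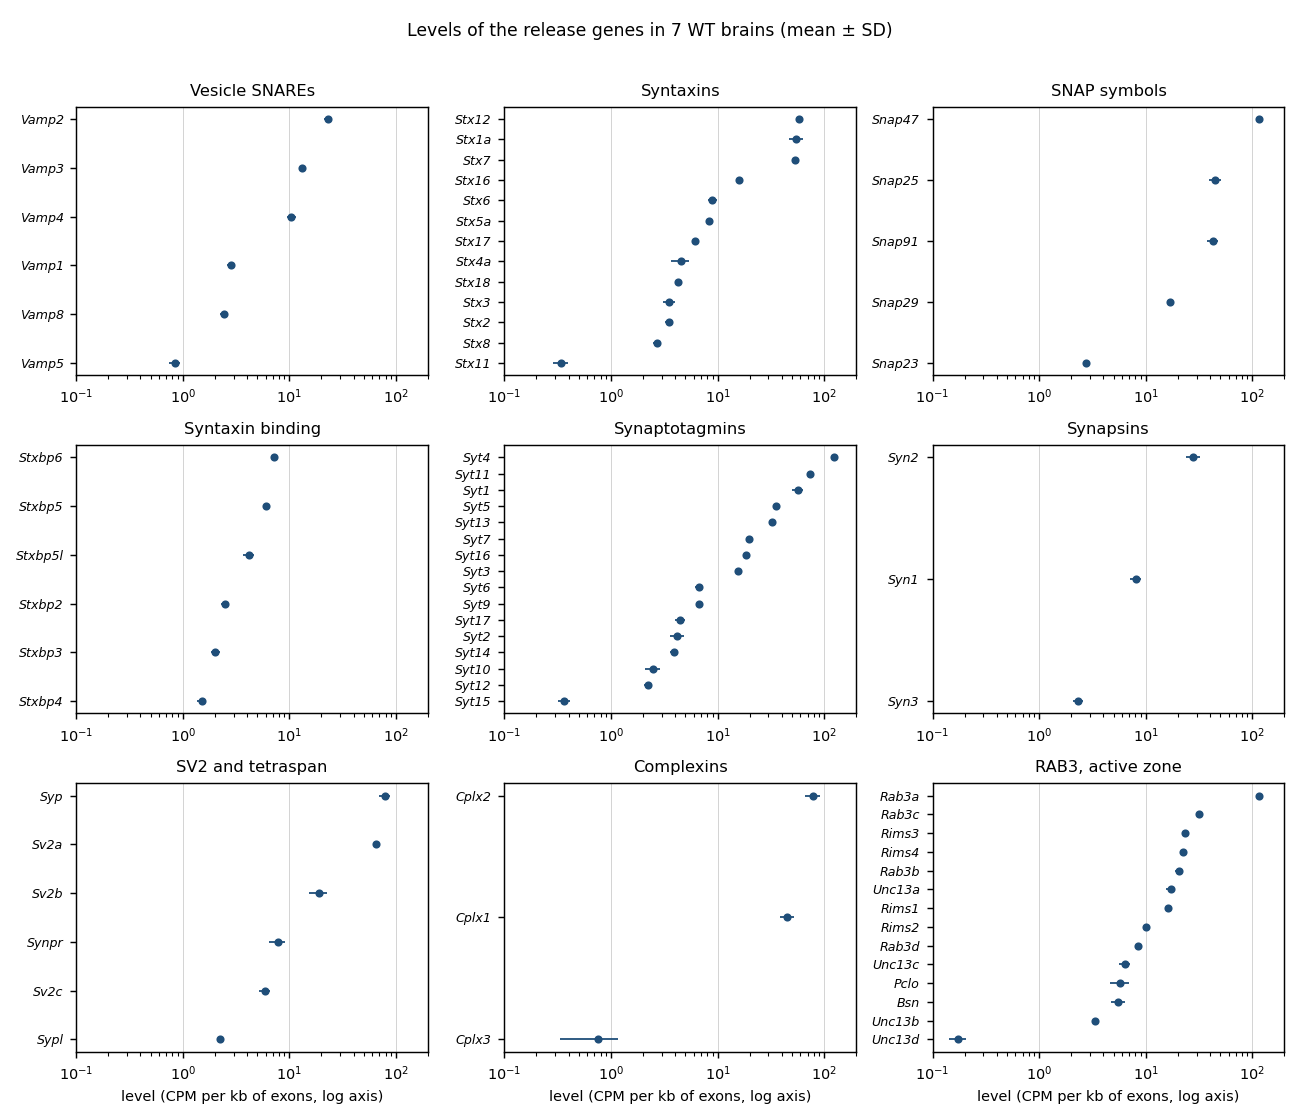
Level of 72 of the 74 release genes in WT brains, in CPM per kb of merged exons on a log axis, 1 panel for each group of genes. Points are means and bars SD over 7 WT brains. Each group but the syntaxin binding proteins spreads over more than 1 power of 10, with Vamp2, Syt4, Syn2, Syp, Cplx2 and Rab3a at the head of theirs.

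The mRNAs of the release machinery were near their WT levels in Capn15 KO brains. In the model with litter, sex and genotype, 0 of the 74 members had an FDR under 0.05 (edgeR quasi-likelihood test), against 1 gene (0.00558%) of all 17927. At an unadjusted p under 0.05 there were 8 members, 10.8% of them, against 922 or 5.14% of all genes. Of these 5 were higher in Capn15 KO brains (Bsn, Pclo, Snap23, Syn1 and Syt10, 6.76% of members against 2.88% of all genes) and 3 were lower (Syt12, Syt2 and Vamp1, 4.05% against 2.26%). No member had WT and Capn15 KO libraries that did not overlap in CPM, compared with 0.00558% of all genes. The median log2 fold change was 0.0024 over the members and 0.0015 over all genes.

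The 95% intervals show how narrow these differences were. For 60 of the 74 members the whole interval lay within 15% of the WT level, against 11230 of the 17927 genes. All 37 members at or above the median level per kb were among these 60, and none of these 37 had an unadjusted p under 0.05 in edgeR's test. The 8 members with a smaller p all came from the 37 with lower levels per kb. A low level per kb is not a low count: Pclo and Bsn have long mRNAs and had at least 5012 and 3602 counts in each library.

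**Figure D2:**
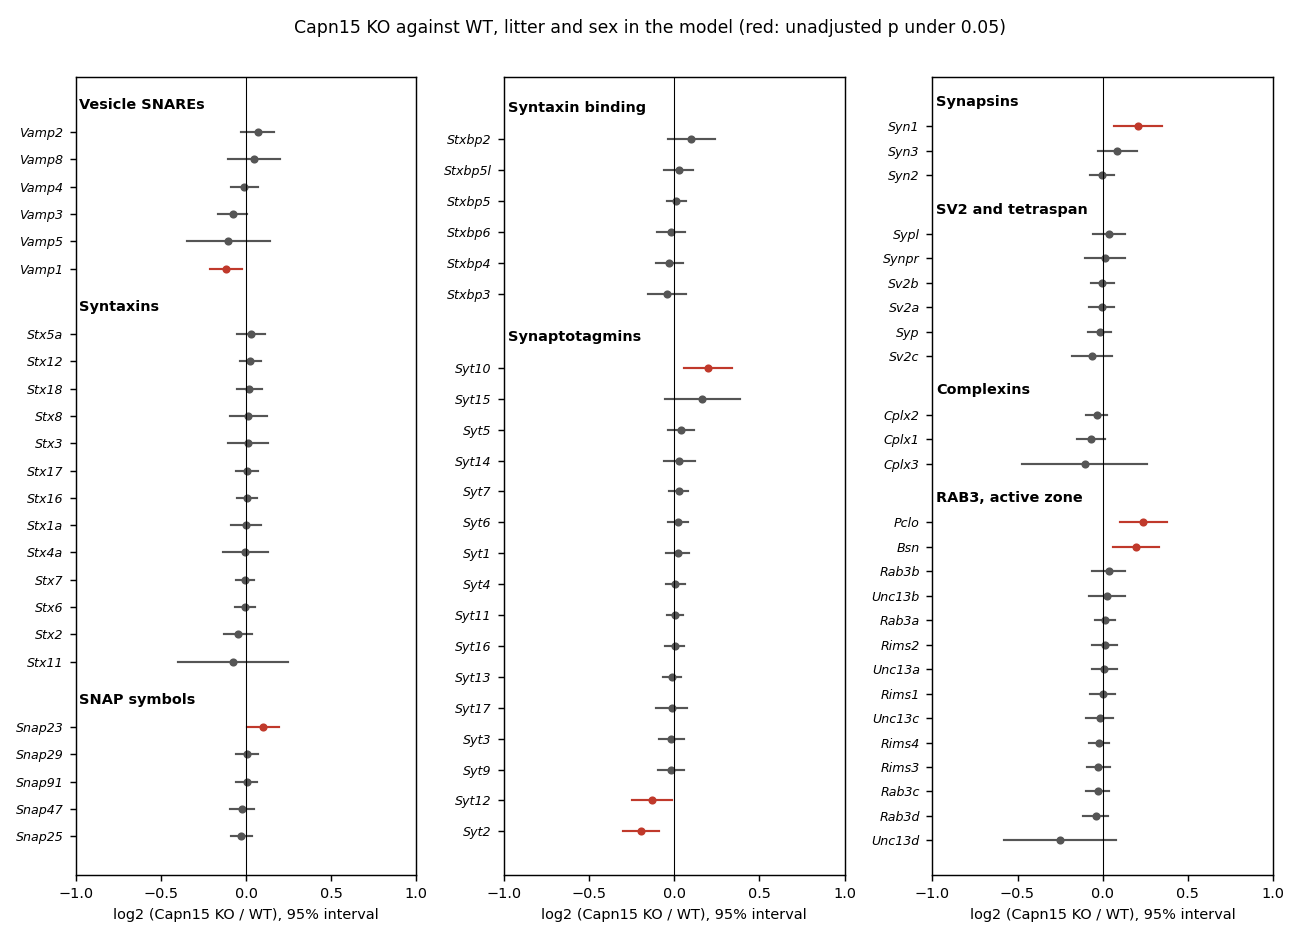
Log2 fold change of 72 of the 74 release genes, Capn15 KO over WT, with its 95% interval, from the model with litter and sex over 14 libraries. Points in red have an unadjusted p under 0.05, and none has an FDR under 0.05. Most points lie within 0.1 of 0, and the widest intervals belong to members with low counts such as Unc13d, Cplx3 and Stx11.

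Syt2 and Vamp1 pair up in fast-firing synapses of brainstem and spinal cord, and both were lower by point estimate. Syt2 (ENSMUSG00000026452, GRCm38 chromosome 1, 134646677 to 134762593, plus strand, 9 exons in its longest transcript) had a lowest, median and highest level of 26.6, 33.7 and 39.3 CPM in WT and 22.1, 29.0 and 35.4 CPM in Capn15 KO brains. The groups overlapped, and Capn15 KO replicate 4 stood below every other library. The log2 fold change was -0.20 (SE 0.0487, FDR = 0.466, edgeR) with an interval from -0.30 to -0.09, and Syt2 was lower in 5 of 7 pairs. With 1 library left out it came nearest to 0 without WT replicate 4, at -0.12. All 14 such fits kept an unadjusted p under 0.05 for Syt2. With both brains of litter F left out the log2 fold change of Syt2 was -0.225 (FDR = 0.370, edgeR). By edgeR's likelihood ratio test the FDR of Syt2 was 0.0717. The study, which does not name its edgeR test, lists Syt2 among its decreased mRNAs at an FDR under 0.05. Its log2 fold change for Syt2 lay further from 0 than in any fit made here. For Capn15 it also lay further from 0 than the -0.81 found here, and the study called more genes than the 1 called here. The reason for these gaps was not tested. The ratio of Syt2 to Syt1, both per kb, was 0.0733 ± 0.00405 in WT and 0.0663 ± 0.00886 in the Capn15 KO group (SD, n = 7 each), and in 6 of 7 pairs it was lower in the Capn15 KO brain.

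Vamp1 (ENSMUSG00000030337, chromosome 6, 125215551 to 125245964, plus strand) was at 24.9, 28.7 and 30.9 CPM in WT and 21.5, 27.0 and 33.1 CPM in Capn15 KO brains. The groups overlapped almost wholly, the Capn15 KO brains holding both the lowest and the highest library. Its log2 fold change was -0.12 (SE 0.0427, FDR = 0.805, edgeR). Syt12, a synaptotagmin without calcium binding, was at 10.4, 12.3 and 13.9 CPM in WT and 9.66, 11.5 and 12.7 CPM in Capn15 KO brains, a log2 fold change of -0.13 (SE 0.0545, FDR = 0.933, edgeR). With 1 library left out, Vamp1 came nearest to 0 without WT replicate 4, at -0.07, and Syt12 without Capn15 KO replicate 4, at -0.08. An unadjusted p under 0.05 was kept in 12 of the 14 such fits by Vamp1 and in 8 by Syt12.

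Capn15 KO replicate 4 was the lowest of the 14 libraries in Syt2, Vamp1, Syt12 and Sv2c (43.1 CPM). In the same library the 8 markers of caudal neural tube (Hox genes and Slc6a5, which mark hindbrain and spinal cord) summed to 17.3 CPM, against 24.5 to 35.5 CPM in the other Capn15 KO and 21.8 to 35.9 CPM in the WT brains, and none of the 8 was at 0. WT replicate 7, with the lowest WT sum of 21.8 CPM, had 34.6 CPM of Syt2, 30.9 CPM of Vamp1 and 13.9 CPM of Syt12. Its Vamp1 and Syt12 were the highest of the WT brains. The mean deviation of these markers from the gene means, in log2 CPM, was highest in litter B (0.34) and low in litter C (-0.36). Both litters had a Syt2 mean of 27.3 CPM. Without Capn15 KO replicate 4 and WT replicate 7, the log2 fold change of Syt2 was -0.14 (FDR = 0.961, edgeR), that of Vamp1 -0.07 and that of Syt12 -0.07 (FDR = 0.981 for both), and only Syt2 of the 3 kept an unadjusted p under 0.05. The part of tissue from the caudal neural tube in these results was not tested beyond this.

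The members higher in Capn15 KO brains by point estimate include the giant scaffolds of the active zone. Pclo (ENSMUSG00000061601, chromosome 5, 14514918 to 14863459, plus strand, 25 exons), which encodes Piccolo, was at 88.6, 125.6 and 169.6 CPM in WT and 124.7, 142.7 and 164.4 CPM in Capn15 KO brains. Bsn (ENSMUSG00000032589, chromosome 9, 108096022 to 108190384, minus strand, 12 exons), which encodes Bassoon, was at 68.6, 89.1 and 102.8 CPM in WT and 90.2, 96.7 and 104.6 CPM in Capn15 KO brains. In both genes the groups overlapped, and WT replicate 7 was the lowest of the 14 libraries.

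The log2 fold change of Pclo was 0.24 (SE 0.0649, FDR = 0.494, edgeR), higher in 5 of 7 pairs. That of Bsn was 0.19 (SE 0.0628, FDR = 0.746), also higher in 5 of 7 pairs. WT replicate 7 alone moved both by more than 1.5 times: without it the log2 fold change of Pclo was 0.15 and that of Bsn 0.12. Without that library and Capn15 KO replicate 4 they were 0.12 (FDR = 0.981, edgeR) and 0.13 (FDR = 0.975). With both brains of litter F left out they were 0.157 and 0.118, each with an unadjusted p under 0.05 in edgeR's test. Pclo and Bsn each kept an unadjusted p under 0.05 in 14 of the 14 fits with 1 library left out, that without WT replicate 7 included. Exons of Pclo overlap genes on the opposite strand and exons of Bsn a gene on the same strand (Gm47303), so reads there are uncertain.

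Syn1 (ENSMUSG00000037217, chromosome X, 20860511 to 20921004, minus strand, 13 exons) was at 21.9, 27.0 and 31.5 CPM in WT and 24.7, 29.3 and 39.9 CPM in Capn15 KO brains. The groups overlapped, with Capn15 KO replicate 5 standing above the others. Its log2 fold change was 0.21 (SE 0.0651, FDR = 0.729, edgeR), higher in 5 of 7 pairs. Leaving out 1 library gave values from 0.14 without WT replicate 5 to 0.32 without WT replicate 4. An unadjusted p under 0.05 was kept in 12 of the 14 such fits. Without WT replicate 7 and Capn15 KO replicate 4 the log2 fold change of Syn1 was 0.27 (FDR = 0.592, edgeR). Araf lies on the opposite strand and shares exon sequence with Syn1. Syn2 had a log2 fold change of -0.0032 and Syn3 one of 0.087.

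Syt10 and Snap23 differed little, but in the same direction in each litter. Syt10, a calcium sensor of IGF1 release in olfactory neurons, was at 3.44, 4.62 and 5.94 CPM in WT and 4.40, 5.21 and 6.44 CPM in Capn15 KO brains, with a log2 fold change of 0.20 (SE 0.0668, FDR = 0.765, edgeR). Snap23 was at 11.2, 11.6 and 12.7 CPM in WT and 11.7, 12.7 and 13.5 CPM in Capn15 KO brains, with a log2 fold change of 0.10 (SE 0.0436, FDR = 0.946, edgeR). The groups overlapped in both genes, though Syt10 and Snap23 were each higher in the Capn15 KO brain in 7 of 7 pairs. In litter F the difference in Snap23 was lost to rounding, both libraries being at 12.7 CPM. Without litter F, whose Capn15 levels go against the labels, the log2 fold change was 0.21 for Syt10 and 0.12 for Snap23. With 1 library left out, Snap23 kept an unadjusted p under 0.05 in 5 of 14 fits and Syt10 in 14.

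**Figure D3:**
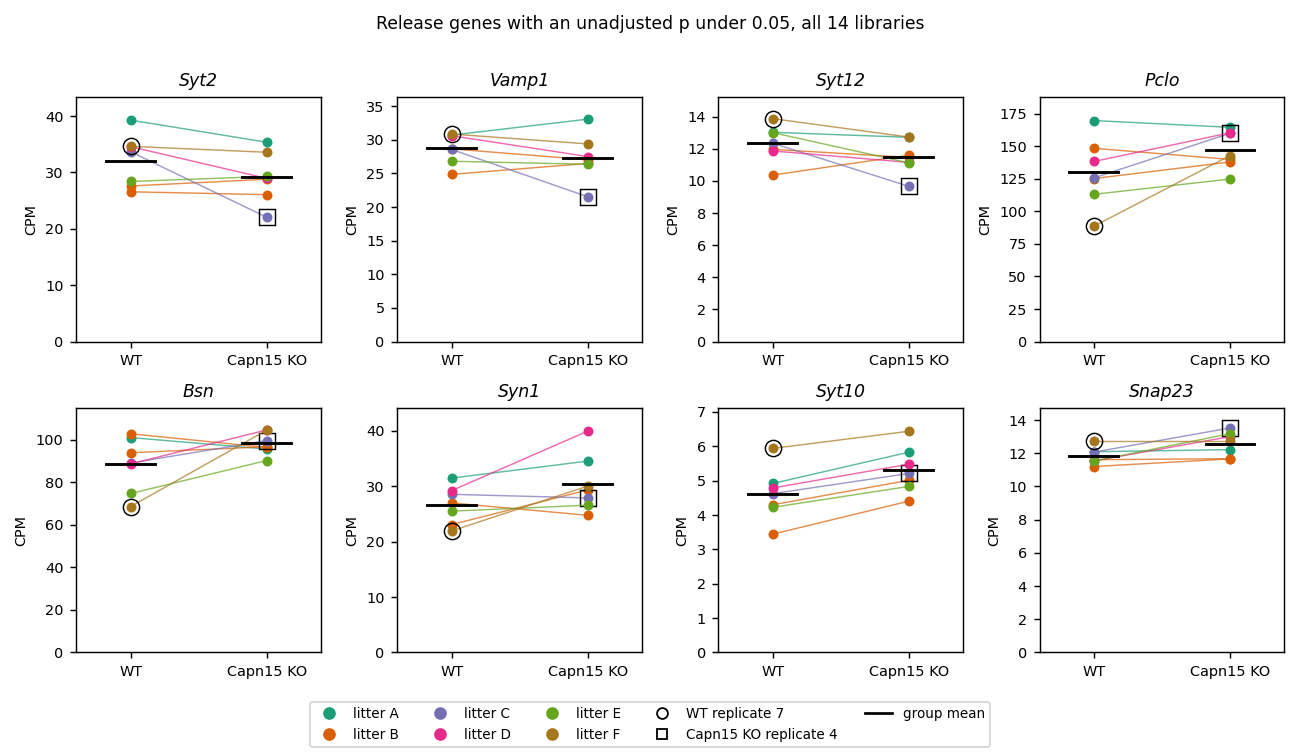
CPM of the 8 release genes with an unadjusted p under 0.05 between genotypes, 1 point for each of 14 brains, colored by litter. Lines join WT and Capn15 KO brains of the same replicate number, black bars are group means, a ring marks WT replicate 7 and a square Capn15 KO replicate 4. WT and Capn15 KO brains overlap in each panel, and the lines of litters C (Syt2, Vamp1, Syt12) and F (Pclo, Bsn) are the steepest in the panels named.

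The central fusion proteins differed little by point estimate. Snap25 was at 248.5, 308.2 and 362.1 CPM in WT and 247.4, 306.1 and 359.2 CPM in Capn15 KO brains, a log2 fold change of -0.03 with an interval from -0.09 to 0.03. Stx1a had a log2 fold change of 0.0003 (interval -0.087 to 0.088). Vamp2 was at 77.5, 87.8 and 96.4 CPM in WT and 81.7, 91.5 and 109.2 CPM in Capn15 KO brains, a log2 fold change of 0.07 (-0.027 to 0.17). Leaving out 1 library moved that of Vamp2 from 0.00052 without WT replicate 5 to 0.15 without WT replicate 4 (FDR = 0.338, edgeR). In each of these genes the libraries of the groups overlapped over most of their ranges.

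The synaptotagmins and vesicle proteins with high levels were equally close. Syt1 had a log2 fold change of 0.02 (interval -0.047 to 0.088), Syt4 of 0.0062 (-0.048 to 0.061), Syt7 of 0.03 (-0.029 to 0.083) and Syt11 of 0.0038 (-0.043 to 0.051). Sv2a was at -0.0063 (-0.079 to 0.066), Sv2b at -0.0014 (-0.067 to 0.064) and Syp at -0.02 (-0.084 to 0.049). The 3 complexins were lower by point estimate, Cplx1 at -0.07 (-0.15 to 0.016) and Cplx2 at -0.04 (-0.098 to 0.027). Rab3a (0.01, -0.047 to 0.073), Rims1 (-0.00089, -0.071 to 0.070) and Unc13a (0.0092, -0.066 to 0.084) also had intervals that included 0. With 1 library left out Cplx1 ran from -0.13 without WT replicate 5 to -0.0049 without WT replicate 4. Cplx3, with few counts, was at -0.11 (-0.47 to 0.26). As a percent change from the WT level the interval of Cplx3 went from -27.9% to 20% and that of Cplx1 from -9.94% to 1.12%, while those of the other genes given here lay within 10%.

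By group, the median log2 fold change lay between -0.07 for the complexins and 0.09 for the synapsins. It was -0.04 over the vesicle SNAREs, 0.0063 over the syntaxins, 0.0046 over the Snap symbols, 0.011 over the syntaxin binding proteins, 0.0050 over the synaptotagmins, -0.0038 over the SV2 and tetraspan proteins and 0.0042 over the RAB3 and active zone genes. The groups with the largest medians are small (3 complexins and 3 synapsins). With 1 library left out the median of the complexins ran from -0.13 without WT replicate 5 to -0.0049 without WT replicate 4, that of the synapsins from 0.039 without WT replicate 7 to 0.13 without WT replicate 5, and that of the vesicle SNAREs from -0.067 to -0.017.

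The ratio of close relatives, both per kb, was taken in each library for 11 pairs of genes, and WT and Capn15 KO brains overlapped in each of the 11. Syn2 to Syn1 was 3.47 ± 0.602 in WT and 3.03 ± 0.366 in Capn15 KO brains, lower in 6 of 7 pairs of brains. Snap23 to Snap25 was 0.0621 ± 0.00737 and 0.0674 ± 0.00832, lower in 1 of 7, and Vamp1 to Vamp2 was 0.123 ± 0.0102 and 0.111 ± 0.0105, lower in 4 of 7. Cplx1 to Cplx2 was 0.574 ± 0.0306 in WT and 0.567 ± 0.0298 in Capn15 KO brains, and Sv2b to Sv2a 0.291 ± 0.0471 and 0.289 ± 0.0407 (levels per kb, SD, n = 7 each).

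The wider vesicle cycle was described with 54 further genes (SNARE disassembly, active zone scaffold, priming, calcium channels, vesicle membrane, synucleins and endocytosis). None of the 54 had an FDR under 0.05 between genotypes in edgeR's test, and 5 (9.26%) had an unadjusted p under 0.05, against 5.14% of all genes. Of these 3 were higher and 2 lower, against 2.88% and 2.26% of all genes. The smallest p belonged to Sncg, a synuclein, at 10.9 ± 0.880 CPM in WT and 10.1 ± 2.07 CPM in Capn15 KO brains, with a log2 fold change of -0.22 (SE 0.0555, FDR = 0.466, edgeR). Dnm3, a dynamin that pinches off endocytic vesicles, had a log2 fold change of 0.11 (SE 0.0303, FDR = 0.531), and Cacna1e, a presynaptic calcium channel, one of 0.16 (SE 0.0603, FDR = 0.818). Of all libraries, WT replicate 7 was the lowest in Dnm3 (98.8 CPM) and Cacna1e (145.6 CPM). Capn15 KO replicate 4 was the lowest in Sncg (7.40 CPM), which also had an unadjusted p of 0.00012 between sexes in edgeR's test.

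Sex entered the same model. No member had an FDR under 0.05 between females and males (edgeR quasi-likelihood test), against 12 genes or 0.0669% of all. At an unadjusted p under 0.05 there were 2 members (2.70%), against 5.04% of all genes. They were Syt2 and Vamp1, the same pair as above. Syt2 was at 26.1, 31.5 and 35.4 CPM in 6 females and 22.1, 28.7 and 39.3 CPM in 8 males, and Vamp1 at 26.4, 27.8 and 33.1 CPM and 21.5, 28.1 and 30.9 CPM. The sexes overlapped in both. The log2 difference, female minus male, was 0.19 for Syt2 (SE 0.0527, FDR = 0.726) and 0.15 for Vamp1 (SE 0.0462, FDR = 0.927). Because the brains of a pair were of opposite sex in replicates 1 to 6, sex and genotype are estimated from nearly the same differences within litters. With genotype and litter alone in the model, the log2 fold change between genotypes was -0.14 for Syt2 and -0.08 for Vamp1.

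More release genes differed between litters than between genotypes or sexes. In the joint edgeR test of litter, with genotype and sex in the model, 37 of the 74 members (50%) had an FDR under 0.05, against 5301 genes or 29.6% of all. Litter B stood apart: 28 members (37.8%) were called and lowest in litter B, against 14.7% of all genes, while 4 (5.41%; Rims3, Stx17, Stx6 and Syt6) were called and highest there, against 12% of all genes. Of the called genes, 75.7% of the members and 49.7% of all genes had their lowest level in litter B. The called members were highest in litter A in 15 cases (20.3% of members against 4.99% of all genes), in litter F in 10 (13.5% against 6.58%) and in litter D in 7 (9.46% against 3.79%). The differences were small: the median log2 range between litter means was 0.23 over the members and 0.28 over all genes. Among the 37 members at or above the median level per kb 21 were called, and among the 37 below it 16.

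The members called included Snap25, Stx1a, Vamp2 and Syt1, the fusion SNAREs and the calcium sensor. Vamp2 was near the threshold (FDR = 0.049, edgeR), and litter B overlapped the other brains (77.5 to 91.5 against 81.7 to 109.2 CPM). It was called in 15 of 24 fits with a litter term, and Snap25, Stx1a and Syt1 in 23 each. Sv2b (ENSMUSG00000053025, chromosome 7, 75114894 to 75309262, minus strand, 13 exons), a vesicle glycoprotein, was at 115.6, 123.7 and 125.6 CPM in the 4 brains of litter B and at 149.5, 173.3 and 191.6 CPM in the other 10. The 4 brains of litter B, 2 of each genotype, lay below all 10 others. The litter means of Sv2b (geometric means of CPM) were 184 in A, 122 in B, 152 in C, 174 in D, 158 in E and 189 in F, a 1.55-fold range (FDR = 1.2e-05, edgeR).

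Cplx2 (ENSMUSG00000025867, chromosome 13, 54371349 to 54383917, plus strand) was at 302.7, 318.2 and 328.4 CPM in litter B and at 364.4, 410.5 and 462.4 CPM in the other brains, with litter means from 317 in B to 449 in F (FDR = 3.8e-05, edgeR). Snap25 (chromosome 2, 136713453 to 136782428, plus strand) was at 247.4, 248.5 and 263.6 CPM in litter B and at 279.6, 326.5 and 362.1 CPM elsewhere (FDR = 3.9e-05). Syn2 (chromosome 6, 115134902 to 115282006, plus strand) was at 148.5, 157.5 and 164.1 CPM in litter B and at 185.7, 215.3 and 228.3 CPM elsewhere (FDR = 3.9e-05). None of these overlapped between litter B and the rest.

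The same separation was seen in Syt1 (388.1 to 435.4 CPM in litter B and 464.0 to 558.0 elsewhere), Stx1a (112.1 to 127.9 and 134.0 to 172.9), Unc13a (179.3 to 196.7 and 208.1 to 251.1), Rims1 (99.2 to 114.7 and 116.9 to 131.0) and Snap91 (320.3 to 346.4 and 372.1 to 445.9). In all, 16 members had the 4 litter B libraries below the other 10, against 9.77% of all genes, and 2 had them above, against 7.45%. The 2 were Stx6, at 103.7 to 110.0 CPM in litter B and 86.3 to 94.7 CPM elsewhere, and Stx17, at 38.1 to 40.6 and 34.0 to 37.4 CPM. Both act away from the synapse, Stx6 in the trans-Golgi network and Stx17 in the fusion of autophagosomes with lysosomes.

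The largest fold range was that of Cplx3, whose litter means ran from 0.959 CPM in litter B to 3.81 CPM in litter A, 3.98-fold (FDR = 9.5e-04, edgeR). The low counts, down to 25 in a library, make its single values coarse. The balance between relatives differed by litter as well: the mean ratio of Sv2b to Sv2a was 0.234 in B and 0.340 in F. Sv2a was not called between litters. Pclo differed in another way, with its lowest litter mean in F, where WT replicate 7 was at 88.6 CPM.

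Without litter B, 1 of the 74 members (Cplx2) had an FDR under 0.05 between the remaining litters, against 196 genes or 1.09% of all. Only 10 libraries were left in that fit, so its power was lower, and it cannot tell this loss from the part of litter B. Litter F has fewer libraries than litter B. Without litter F, 36 of the 37 called members were called again. What the brains of a litter shared besides parentage (age in hours, day of dissection or extraction) is not given in the sources used here and cannot be told apart from litter.

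**Figure D4:**
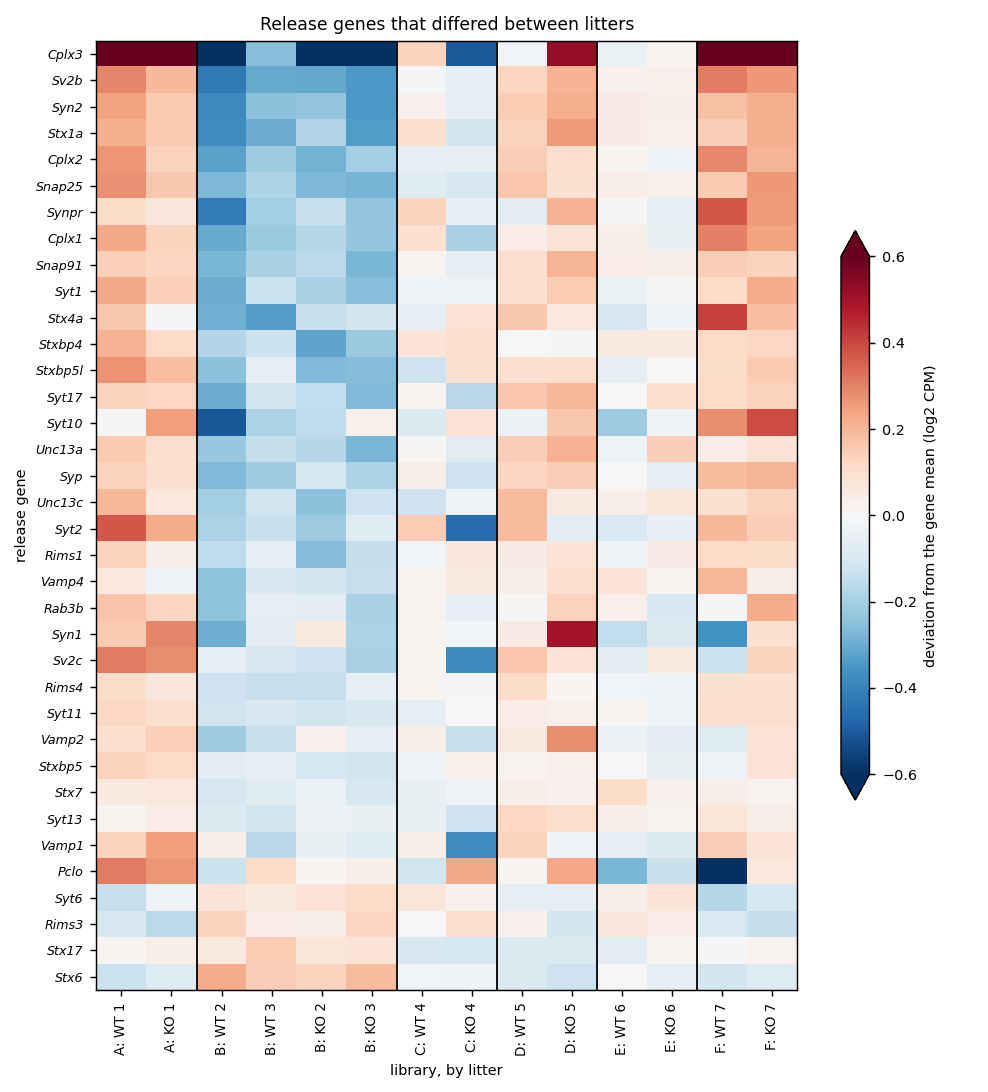
Deviation of each library from the mean log2 CPM of the gene, for 36 of the 37 release genes with an FDR under 0.05 between litters, ordered by their mean in litter B. Columns are the 14 libraries by litter, and the color scale ends at 0.6 in both directions, which Cplx3 and, in WT replicate 7, Pclo pass. The 4 columns of litter B are blue in most rows and red for Stx6, Stx17, Rims3 and Syt6, whichever the genotype.

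Marker genes of other cells moved with litter too. The mean deviation in log2 CPM over all release genes was -0.092 in litter B and 0.088 in litter A, and over the 6 neuron markers -0.085 in B and 0.064 in F. Over the 6 oligodendrocyte lineage markers it was -0.56 in litter B, 0.49 in A and 0.61 in F, with all 6 called between litters, and over the 5 astroglia markers -0.27, 0.26 and 0.27, with 4 called. The 3 red blood cell markers went from -1.95 in litter D to 0.86 in litter B, and the 8 caudal neural tube markers from -0.40 in F to 0.34 in B. The oligodendrocyte lineage and astroglia markers had B lowest and A and F highest, and so did the complexins (-0.49 in B, 0.47 in A, 0.46 in F). Cplx3, with few counts, widened these means (log2 litter range 1.99, against 0.51 for Cplx1 and 0.50 for Cplx2), but each complexin had this order. Among the other groups of release genes the syntaxins, the synapsins and the RAB3 and active zone genes did not have it, while the rest did. The microglia markers were lowest in B and highest in C (0.11). How much of the litter differences of the release genes came with these cells or with the stage of the brains was not tested.

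The other genes of the vesicle cycle shared the pattern. Of the 54, 31 (57.4%) were called between litters in edgeR's test, against 29.6% of all genes. Of the 54, 28 (51.9%) were called and lowest in litter B, against 14.7% of all genes. In 16 the 4 litter B libraries lay below the other 10, against 9.77% of all genes. The priming and calcium sensing genes had a mean deviation of -0.22 in litter B and 0.18 in litter D, with 7 of 8 called. The calcium channel genes had 2 of 5 called and a mean deviation of -0.11 in litter B.

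**Figure D5:**
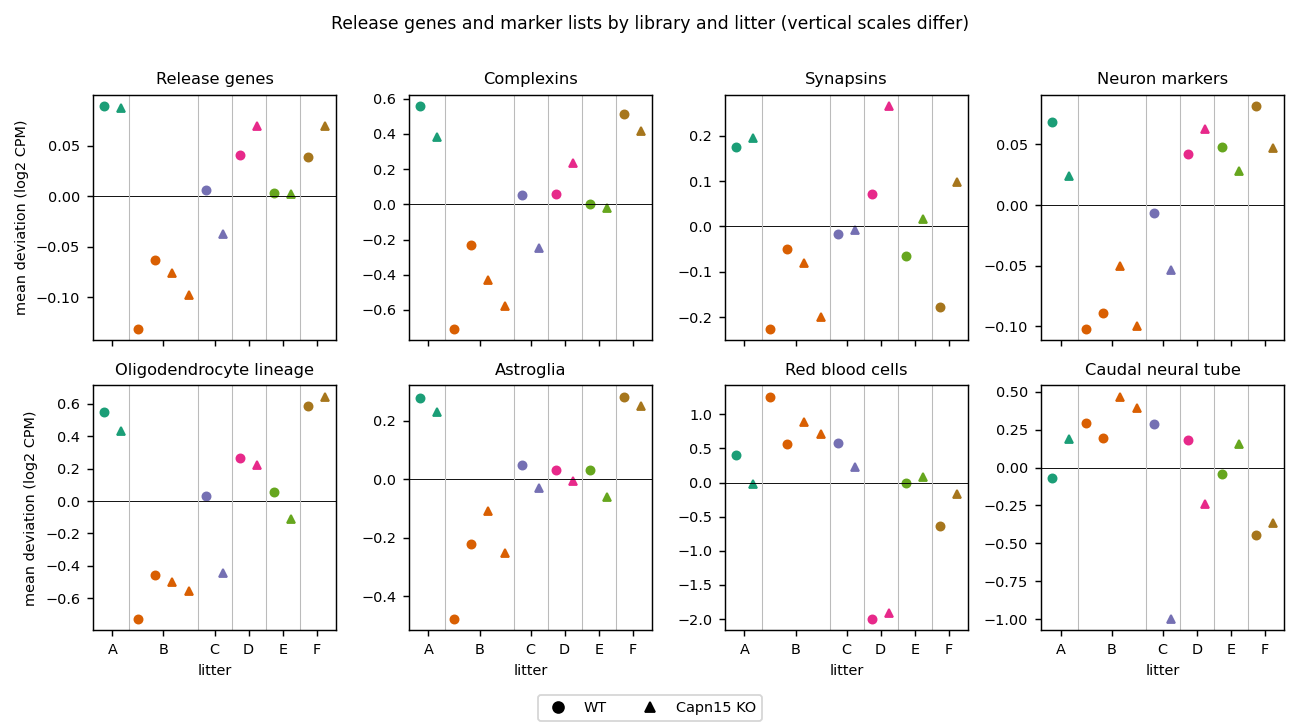
Mean deviation from the gene mean in log2 CPM over each list, by library and litter (circles WT, triangles Capn15 KO), with vertical scales that differ between panels. On average litter B lies lowest for the release genes, complexins, neuron, oligodendrocyte lineage and astroglia markers and highest for red blood cells. Capn15 KO replicate 4 (litter C) lies lowest for the caudal neural tube markers.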

How the data were processed

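RNA-SEQ libraries of 14 P2 brains were analysed as deposited. Per the labels and the study's methods, RNA was depleted of ribosomal RNA, and reads were trimmed with Trimmomatic and aligned to GRCm38 with STAR. The labels name a stranded TruSeq kit and featureCounts, the methods ScriptSeq and HTSeq-count. The strand setting is not given in the sources used here. The authors deposited raw counts per gene for 17927 genes, with 0 value columns unassigned. Members and gene lists were chosen with earlier results of these data known.

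Genotype and replicate number came from the labels, litter (letters A to F) and sex from the column names, so equal replicate numbers share a litter. Deviations of equal-numbered libraries correlated at 0.319, 0.416, 0.323, -0.467, -0.105, -0.0679 and 0.443 over 15227 genes (mean 0.123, against -0.0398 between litters). No libraries were copies (lowest chi-square 4.66 per gene).

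The counts went through edgeR 4.0.16 under R 4.3.3 (TMM scaling, every gene having 1 count or more, quasi-likelihood test, litter, sex and genotype in the model, Benjamini-Hochberg FDR under 0.05 over all genes), with limma 3.58.1 and DESeq2 1.42.0 as alternatives, and in Python 3.11.15 with pandas 2.3.3, numpy 2.4.6 and matplotlib 3.10.9. The fits were tested on simulated data. Of 27 alternatives 2 were added after seeing the data. Intervals are 95% intervals of the fit. CPM values use TMM factors, log2 CPM a prior count of 2. Named genes are Capn15, members called (up to 20 by p), 29 presynaptic members listed, the 5 smallest p-values of each comparison, the highest and lowest member of each group, and the 3 pathway genes with the smallest p. Others were chosen after their values were seen. Some of the genes under this rule, and some markers, are not reported here. Positions are from GENCODE M21 (GRCm38). Of the members 19 share exon sequence with a gene on the opposite strand and 2 with one on the same strand, and their counts are uncertain.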

Additional observations from a re-analysis of the deposited data

Results flagged for a closer look

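Within the WT and the Capn15 KO group, the gap from the lowest or highest library to its nearest neighbor was divided by the range of the group, for Capn15, the named members and the gene groups. This was done for 84 groups of 7 libraries, and 4 stood out, where chance alone gives about 1 in 20 or 4.2. Capn15 in WT replicate 7 was lowest of the WT brains, at 4.23 log2 CPM against 4.64 for the next, a gap of 0.761 of the range. Capn15 in Capn15 KO replicate 7 was highest of the Capn15 KO brains, at 4.34 log2 CPM against 3.87, a gap of 0.647 of the range. Both are of litter F. The vesicle SNAREs were lowest in WT replicate 2, with a mean deviation of -0.136 in log2 CPM against -0.0017 for the next (0.651 of the range). The syntaxins were lowest in WT replicate 3, at -0.068 against -0.0090 (0.631 of the range). WT replicates 2 and 3 are both of litter B.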

How the results depend on the processing

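In all 27 alternatives for genotype 0 members had an FDR under 0.05. The members at an unadjusted p under 0.05 numbered 6 to 10 with 1 library left out, 8 with a replicate block with sex, and 0 with genotype alone or with genotype and sex. Over all genes the count called between genotypes was 34 by the likelihood ratio test, 22 by DESeq2, 2 with genotype and litter, 0 with library totals, 0 with the replicate block, 7 without litter F, 2 without WT replicate 7 and Capn15 KO replicate 4, 0 without litter B, and 0 to 7 with 1 library left out. The block changed no call of a member. Between litters the member count fell to 1 and that of all genes to 196 without litter B, and the member count was 27 to 40 with 1 library left out. The median log2 fold change of the syntaxins was -0.0039 with genotype alone, -0.0020 without WT replicate 7 and Capn15 KO replicate 4, -0.0019 without litter B and -5.96e-05 to 0.0074 with 1 library left out. That of the syntaxin binding proteins was -0.034 without those 2 libraries and -0.011 to 0.015 with 1 left out, a change of sign.

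Members near 0 changed sign, none of them called. Stx1a was at -0.0010 by DESeq2, -0.0010 with RLE factors, -0.0020 with library totals, -0.00014 with the block, -0.013 without litter F and -0.020 without litter B. With genotype alone Sv2a was at 0.0050 and Syt11 at -0.0025, and with genotype and litter at 0.0045 and -0.0021. With genotype and sex Rims1 was at 0.0068, Sv2b at 0.016, Syn2 at 0.011, Syp at 0.00035 and Syt4 at -0.0036. Without litter F Rims1 was at 0.0011 and Sv2b at 0.0069. Without WT replicate 7 and Capn15 KO replicate 4, Cplx1 was at 0.0077, Stxbp5l at -0.034, Sv2a at 0.060, Sv2b at 0.031, Syn2 at 0.021, Syp at 0.016, Syt11 at -0.021, Syt14 at -0.047 and Syt4 at -0.012, while Snap91 (0.045) and Synpr (0.15) kept their sign. Without litter B Rims1 was at 0.016, Snap91 at -0.0019, Stx1a at -0.020, Synpr at -0.025, Syt11 at -0.0033 and Syt4 at -0.013. With 1 library left out the ranges that crossed 0 were -0.014 to 0.048 (Rab3a), -0.020 to 0.012 (Rims1), -0.030 to 0.036 (Snap91), -0.055 to 0.068 (Stx1a), -0.011 to 0.069 (Stxbp5l), -0.063 to 0.057 (Sv2a), -0.029 to 0.017 (Sv2b), -0.13 to 0.023 (Sv2c), -0.028 to 0.029 (Syn2), -0.085 to 0.088 (Synpr), -0.048 to 0.020 (Syp), -0.0097 to 0.018 (Syt11), -0.0042 to 0.081 (Syt14), -0.016 to 0.018 (Syt4) and -0.014 to 0.037 (Unc13a). The cause was not tested.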
